A study of Mus musculus with 5 samples.

Results

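Nucleoside transport and extracellular adenosine were examined through 10 genes in immortalized mouse embryonic fibroblasts: the equilibrative nucleoside transporter genes Slc29a1, Slc29a2 and Slc29a3, the nucleotide-hydrolysing enzyme genes Entpd1, Entpd5, Enpp1 and Nt5e, the adenosine deaminase gene Ada, and the adenosine receptor genes Adora1 and Adora2b. They were chosen by name, and all 10 were found among the 23337 genes of the expression table. The cells were strain 129Sv fibroblasts immortalized with the SV40 large T antigen and grown under normal conditions, in 2 libraries labelled SIRT3 -/- (KO) and 3 libraries labelled wild type (WT). No label says whether libraries of the same genotype represent separate lines, clones or cultures. The p-values therefore reflect library-to-library spread that may be technical only, and genotype cannot be told apart from any other difference between the lines. SIRT3 is a mitochondrial deacetylase, and by its title the study is about cells without it and their need for nucleotides made de novo.

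Nucleosides enter mammalian cells largely through equilibrative transporters, which let them pass down their concentration gradient in either direction and so feed the salvage route that runs beside de novo synthesis. Outside the cell, ATP is cut to AMP by ectonucleotidases such as CD39 (Entpd1) or ENPP1, and AMP is cut to adenosine by CD73 (Nt5e). Adenosine then acts on G protein-coupled receptors, is taken up by the transporters, or is deaminated to inosine by adenosine deaminase.

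The targeted gene did not follow its label. Sirt3 was at 200.4 and 217 normalized read counts (read counts after division by the size factor of each library) in the KO-labelled libraries, against 169.7, 149.4 and 118.4 in WT, and was called higher (log2 fold change 0.53, limma, adjusted p = 0.0044). That call was lost in 3 of 17 alternatives: without KO replicate 2 (log2 fold change 0.47, adjusted p = 0.077), by DESeq2 on recovered reads (0.53, adjusted p = 0.063) and with the median difference of neighbouring genes removed (0.22, adjusted p = 0.232). Over single libraries left out, the log2 fold change was lowest without WT replicate 3, at 0.39 (adjusted p = 0.029). These totals per gene do not show whether part of the transcript is missing, and directions below are between libraries as labelled. Recovered totals were 33473103 and 33579031 reads in the libraries labelled KO and between 37396488 and 41758681 in WT. Fibroblast genes were present in both groups: Col1a1 averaged 612 RPKM in libraries labelled KO and 472 in WT, Col1a2 738 in KO-labelled and 495 in WT, and Thy1 31.6 in KO-labelled and 32.7 in WT. Pdgfra averaged 5.02 RPKM in libraries labelled KO and 80.4 in WT. Of 13 tested fibroblast markers, 2 were called higher and 8 lower, where 65.3% of all genes tested were called in either direction. Col1a1 and Col1a2 were higher. Lower were Pdgfra, Col3a1 (log2 fold change -2.25), Dcn (-2.35), Prrx1 (-0.82), Pdgfrb (-0.49), S100a4 (-0.46), Vim (-0.38) and Twist1 (-0.27). Lum had at most 1 read per library and was not tested. The summed RPKM of all 14 markers was 5081 to 5188 in libraries labelled KO and 5923 to 6120.3 in WT. Vim and S100a4 held the largest parts of that sum, at means of 1924 and 1026 in libraries labelled KO and 2516 and 1403 in WT. Summed RPKM was 0.437 to 0.478 in libraries labelled KO and 0.167 to 0.196 in WT for 6 epithelial markers (1 tested and called higher), with Krt5 at 0 in all 5 libraries. It was 0.368 to 0.435 in libraries labelled KO and 0.159 to 0.222 in WT for 6 endothelial markers (3 tested, 1 called higher, Tie1 at 0), and 1.60 to 1.79 in libraries labelled KO and 1.87 to 2.07 in WT for 8 blood and macrophage markers (2 tested, 1 called higher, Cd3e at 0). Those called higher were Epcam (log2 fold change 1.69), Kdr (4.12) and Csf1r (1.99). Epcam and Kdr reached the filter value of 10 only in libraries labelled KO, so a higher call was the likelier outcome once they were tested. Epcam rested on 17 and 23 reads in libraries labelled KO and 7, 5 and 8 in WT. Kdr rested on 37 and 32 reads in libraries labelled KO and 0, 3 and 2 in WT. Cdh5, Tek and Cd68 were tested and not called. The part of other cell types in the results below was not tested, and in bulk RNA fewer cells of a type and less RNA per cell cannot be told apart.

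The promoter windows of 4 of the genes are shown because they cover the most abundant transporter gene, Slc29a1, the gene that fell, Entpd5, and those with the largest rises, Enpp1 and Adora1. Each is the window of the most upstream start in RefSeq on GRCm38.p6, from 250 bases before the start to 50 after it, 5′ to 3′ on the gene's strand. The windows lie at chr17:45599569-45599868 for Slc29a1, chr12:84408980-84409279 for Entpd5, chr10:24712110-24712409 for Enpp1 and chr1:134235408-134235707 for Adora1, all on the minus strand. Capitals mark matches on either strand to ACGTG, the core bound by hypoxia-inducible factors, TGACG, a core bound by CREB, the full cAMP response element TGACGTCA, the GC box GGGCGG bound by SP1, and TATAAA.
Slc29a1: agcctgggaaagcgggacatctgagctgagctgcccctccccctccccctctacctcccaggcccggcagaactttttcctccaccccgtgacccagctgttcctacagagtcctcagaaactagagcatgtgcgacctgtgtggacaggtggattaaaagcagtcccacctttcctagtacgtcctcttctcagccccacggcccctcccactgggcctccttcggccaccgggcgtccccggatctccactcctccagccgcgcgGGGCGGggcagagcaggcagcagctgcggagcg
Entpd5: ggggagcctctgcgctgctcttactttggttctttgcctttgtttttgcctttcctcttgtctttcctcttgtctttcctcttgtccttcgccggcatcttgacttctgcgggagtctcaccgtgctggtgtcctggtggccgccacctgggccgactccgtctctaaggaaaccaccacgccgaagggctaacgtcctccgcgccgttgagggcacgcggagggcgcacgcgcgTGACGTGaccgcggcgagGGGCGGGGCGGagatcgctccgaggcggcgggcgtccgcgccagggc
Enpp1: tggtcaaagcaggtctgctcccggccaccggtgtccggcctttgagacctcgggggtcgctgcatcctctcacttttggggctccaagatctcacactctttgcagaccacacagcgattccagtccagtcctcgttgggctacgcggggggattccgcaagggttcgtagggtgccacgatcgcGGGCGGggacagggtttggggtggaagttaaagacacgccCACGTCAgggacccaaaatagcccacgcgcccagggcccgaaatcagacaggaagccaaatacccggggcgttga
Adora1: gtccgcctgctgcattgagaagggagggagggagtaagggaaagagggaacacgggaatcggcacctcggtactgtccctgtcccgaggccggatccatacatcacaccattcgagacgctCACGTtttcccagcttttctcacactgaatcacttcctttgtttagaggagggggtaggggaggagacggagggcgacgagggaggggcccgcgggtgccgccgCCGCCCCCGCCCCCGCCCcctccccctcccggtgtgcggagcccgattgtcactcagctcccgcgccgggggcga

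All 10 genes had a window, with 61.7% to 71.0% G and C against a median of 52.7% over all 32851 windows in the table. The windows of Slc29a2 (chr19:5023756-5024055) and Slc29a3 (chr10:60752733-60753032) were not set at the outer end of the gene positions given below. Each of the 10 genes counts 1 window, while a gene can have several among all windows, as Slc29a1 does with 8. The percentages of all windows are thus only a rough background. The GC box was found in 9 of the 10 windows, all but that of Entpd1, and in 35.7% of all windows. ACGTG was found in 3, those of Entpd5, Enpp1 and Adora1, and in 19.6% of all windows. TGACG was found in 3, those of Entpd1, Entpd5 and Enpp1, and in 20.8% of all windows. In Entpd5 and Enpp1 the ACGTG and TGACG matches overlap each other in a single run. TGACGTCA (1.79% of all windows) and TATAAA (13.6%) were found in none of the 10. These matches are a description of the letters in these windows, which hold genes that rose, fell and did neither.

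Among the 9 genes that passed the filter on low values, Slc29a1, Slc29a2, Enpp1, Ada, Adora1 and Adora2b rose and Entpd5 fell in the libraries labelled KO (limma on log2(value + 1), adjusted p under 0.05 over all genes tested). Slc29a3 and Nt5e did not pass the test, and Entpd1 was too low to be tested. Calls were frequent in this comparison: 65.3% of the 13062 genes tested were called, 32.6% higher and 32.6% lower. The 7 genes called and the 7 whose groups did not overlap are therefore to be read against backgrounds of 65.3% and 75.4%. The median log2 fold change was 0.45 over the 9 genes and -0.0023 over all genes tested. By the size of the log2 fold change, in either direction, Adora1 stood at percentile 95.8 of all genes tested and Enpp1 at 91.9, while Ada stood at 48.3.

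**Figure D1:**
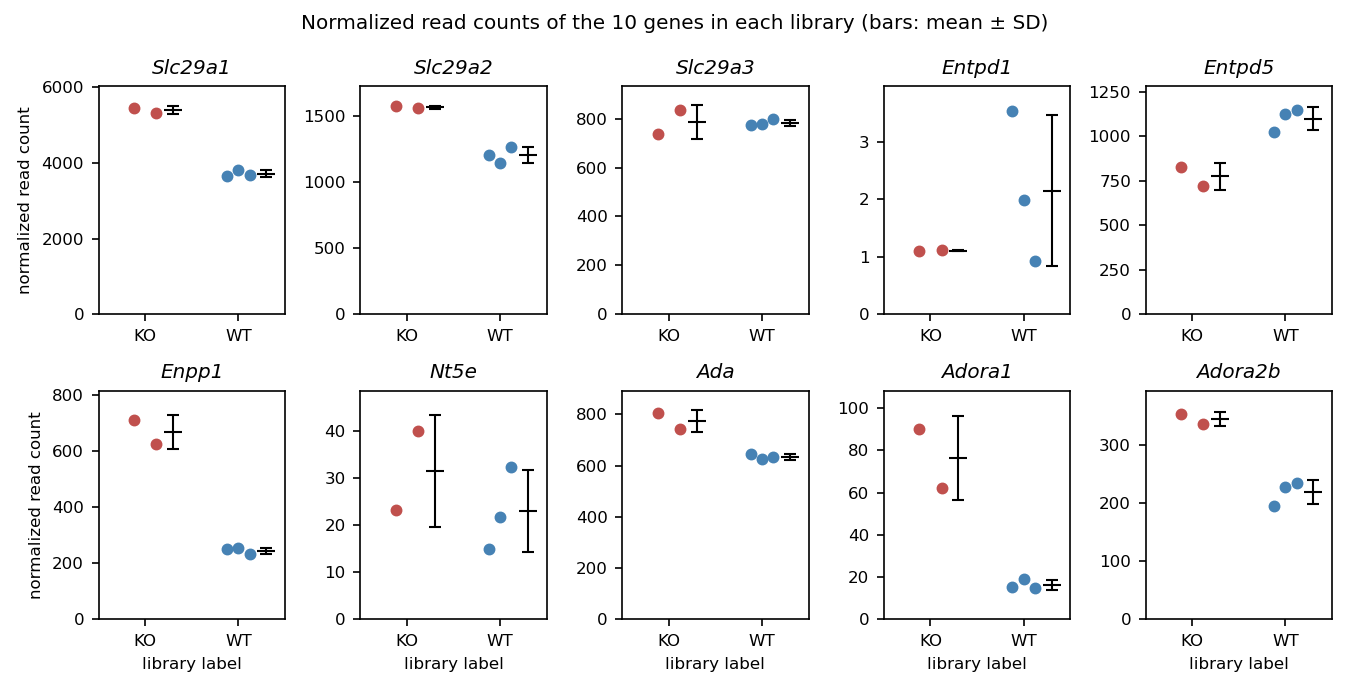
Normalized read counts (vertical axes, each from 0) of the 10 genes, with 1 point per library, libraries labelled KO on the left and WT on the right, and the mean ± SD beside them. The groups do not overlap for Slc29a1, Slc29a2, Entpd5, Enpp1, Ada, Adora1 and Adora2b, while Slc29a3, Nt5e and Entpd1 overlap, the last between 0.925 and 3.54.

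The levels per transcript length ranked the same at the top in both groups. In libraries labelled KO the mean RPKM was 58.9 for Slc29a1, 17.0 for Slc29a2 and 12.8 for Ada, and in WT it was 40.7, 13.2 and 10.6 for the same genes. Below them the order differed. Enpp1 came the fourth in libraries labelled KO at 5.58 RPKM, before Adora2b (5.05), Entpd5 (4.18) and Slc29a3 (4.05). In WT it came after all of these at 2.05 RPKM, with Entpd5 at 5.96, Slc29a3 at 4.05 and Adora2b at 3.22. Nt5e, Adora1 and Entpd1 were the lowest in both groups. Single libraries of neighbours in the order overlapped in libraries labelled KO for Enpp1 and Adora2b, for Entpd5 and Slc29a3 and for Adora1 and Nt5e, and for no neighbouring pair in WT.

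Of the 3 nucleoside transporter genes, Slc29a1 and Slc29a2 rose and Slc29a3 was not called. Slc29a1, which encodes ENT1, the main plasma membrane nucleoside transporter of many cell types, lies on chromosome 17 from 45585200 to 45599618 on the minus strand (mm10). It was at 5469 and 5333 normalized counts in the libraries labelled KO, against 3650.4, 3824 and 3676 in WT. Both libraries labelled KO were above all 3 WT libraries. The KO-labelled libraries averaged 5401 ± 95.8 (SD, n = 2) and the WT libraries 3717 ± 93.9 (SD, n = 3), 1.45-fold apart (log2 fold change 0.54, SE 0.041, limma, adjusted p = 1.7e-10). An antisense gene of GENCODE M21, Gm17080, shares 275 exonic bases with Slc29a1 on the other strand and was not analysed here. How strand was handled in counting is not given in the sources used here, and reads from that stretch cannot be assigned to either gene.

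Slc29a2, which encodes ENT2, a transporter that also carries nucleobases, lies on chromosome 19 from 5019057 to 5031972 on the plus strand. It was at 1570.4 and 1555 normalized counts in the libraries labelled KO, against 1206, 1143 and 1262 in WT. The groups did not overlap, and the difference was 1.30-fold (log2 fold change 0.38, SE 0.057, limma, adjusted p = 6.3e-06). Slc29a3, which encodes the mainly lysosomal ENT3 (chromosome 10, 60712072 to 60752849, minus strand), was at 739 and 837 in the libraries labelled KO and at 775, 778 and 797 in WT. The WT values lay between those of the libraries labelled KO. Its log2 fold change was 0.0061, with a 95% interval from -0.14 to 0.15 (limma, adjusted p = 0.948). The summed RPKM of the 3 transporter genes was 81.0 and 78.9 in the libraries labelled KO, against 57.2, 58.3 and 58.2 in WT. Slc29a1 made up 73.6% ± 0.562 of that sum in libraries labelled KO (SD, n = 2) and 70.3% ± 1.30 in WT (SD, n = 3), a description for which no test was made.

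The chromosomal surroundings of Slc29a1 and Slc29a2 moved in the same direction as the genes. Of 78 tested genes whose midpoints lie within 5 Mb of Slc29a1, 49 were called higher and 6 lower, with a median log2 fold change of 0.33. Its tested neighbours on either side rose too, Hsp90ab1, a cytosolic chaperone gene, with a log2 fold change of 0.76 and Tmem63b with 0.25. Of 185 tested genes within 5 Mb of Slc29a2, 120 were called higher and 25 lower, with a median of 0.30. With the median of the neighbours removed from each gene, the log2 fold change of Slc29a1 was 0.21 and still called (limma, adjusted p = 0.00020), while that of Slc29a2 was 0.075 and no longer called (adjusted p = 0.279). The median was removed as a fixed value, so these p-values do not take in the spread among the neighbours. Of the neighbours, 76.9% were at or below Slc29a1 in log2 fold change and 59.5% at or below Slc29a2.

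**Figure D2:**
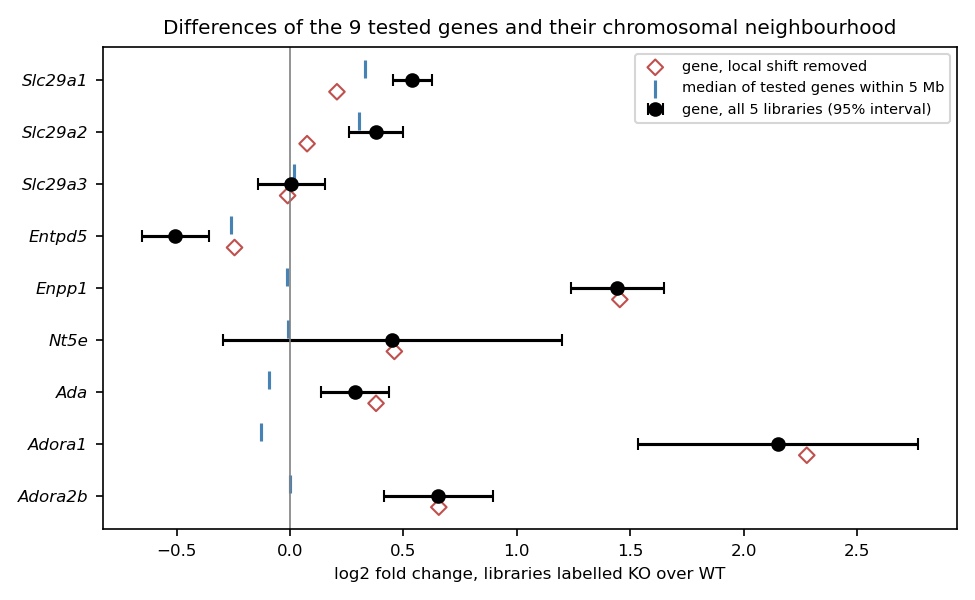
Log2 fold change between libraries labelled KO and WT for the 9 tested genes, with its 95% interval (limma), the value with the local shift removed (open diamonds) and the median of the tested genes within 5 Mb (vertical ticks). The diamonds lie nearer 0 than the points for Slc29a1 (0.21 against 0.54), Slc29a2 (0.075 against 0.38) and Entpd5 (-0.24 against -0.50), and beside the points for Enpp1, Nt5e and Adora2b.

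The enzymes that cut nucleotides split into a gene that rose, a gene that fell and the CD39 and CD73 genes, which were near the lower limit of detection. Enpp1, whose product cuts ATP to AMP and pyrophosphate and which is known as an inhibitor of mineralization, lies on chromosome 10 from 24637914 to 24712159 on the minus strand. It was at 711 and 624 normalized counts in the libraries labelled KO, against 249, 252 and 232 in WT. The lower library labelled KO was above every WT library. Means of 668 ± 61.9 in libraries labelled KO (SD, n = 2) and 245 ± 10.8 in WT (SD, n = 3) gave a 2.73-fold difference (log2 fold change 1.44, SE 0.098, limma, adjusted p = 2.7e-11). Its 32 tested neighbours within 5 Mb had a median log2 fold change of -0.011, with 8 called higher and 10 lower. The tested gene on one side, Ctgf, a matricellular growth factor gene, rose with a log2 fold change of 1.76, and the one on the other side, the related Enpp3, fell with -0.96.

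Entpd5 encodes a nucleoside diphosphatase of the endoplasmic reticulum that hydrolyses UDP during glycoprotein folding, and is thus a relative of the surface enzymes that acts inside the cell. It lies on chromosome 12 from 84373875 to 84409029 on the minus strand. It was at 827 and 722 normalized counts in the libraries labelled KO, against 1023, 1127 and 1144 in WT. Each library labelled KO was below each WT library, and the log2 fold change was -0.50 (SE 0.072, limma, adjusted p = 2.5e-06). Around it 10 of 85 tested genes were called higher and 48 lower, with a median of -0.26. With that shift removed, Entpd5 was still called lower, at -0.24 (adjusted p = 0.0049). Its log2 fold change nevertheless lay within the quartiles of its neighbours, -0.55 and 0.024, and 29.4% of them were at or below it.

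**Figure D3:**
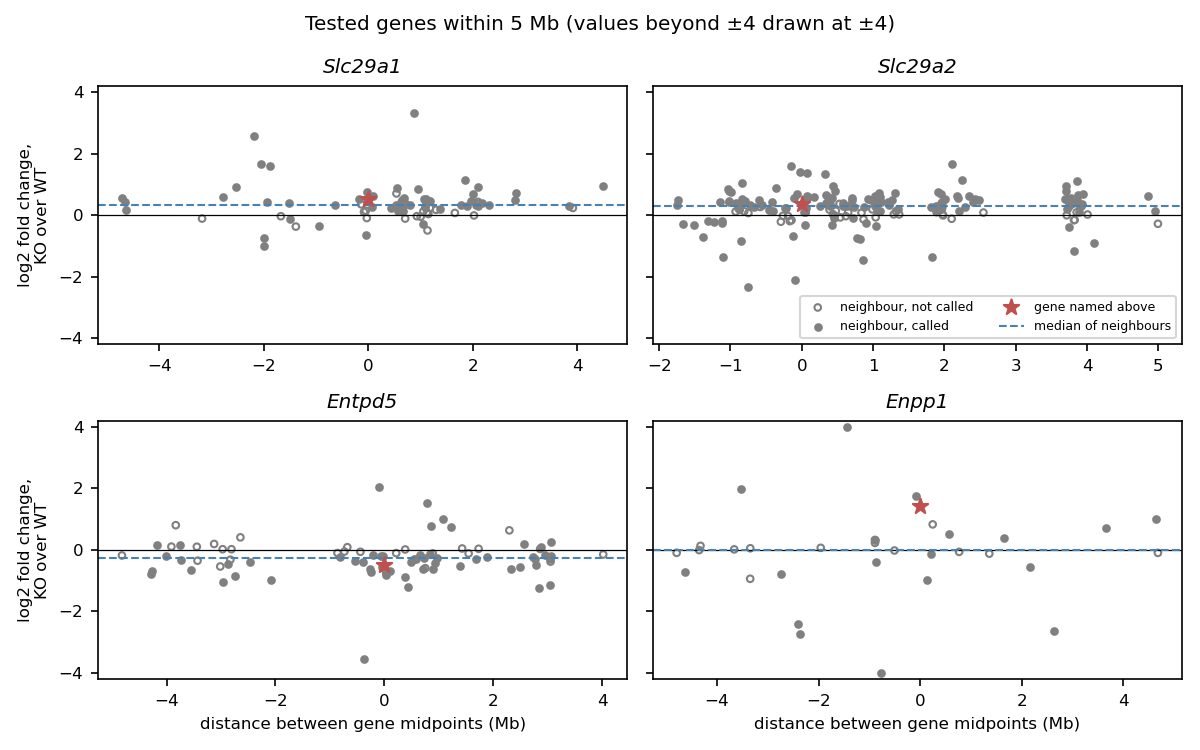
Log2 fold change (libraries labelled KO over WT) of each tested gene against the distance of its midpoint in Mb from that of Slc29a1, Slc29a2, Entpd5 or Enpp1 (star). Filled circles are called genes, open circles genes not called and dashed lines the neighbours' medians, which are 0.33, 0.30, -0.26 and -0.011.

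Nt5e, which encodes CD73, the surface enzyme that makes adenosine from AMP and a marker of mesenchymal stromal cells, was barely expressed. It lies on chromosome 9 from 88327609 to 88372089 on the plus strand. It was at 23.1 and 40.0 normalized counts in the libraries labelled KO and at 15.0, 21.8 and 32.4 in WT, which stand for 21 and 36 reads and for 17, 22 and 35 reads. The groups overlapped, and the log2 fold change of 0.45 had a 95% interval from -0.29 to 1.20 (limma, adjusted p = 0.278). That interval holds 0 and also a rise beyond 1 on the log2 scale. The value rested on single libraries: it was 0.069 without KO replicate 2 and 0.83 without KO replicate 1, called in neither case.

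Entpd1, which encodes CD39, the main surface enzyme that cuts ATP and ADP to AMP on immune and endothelial cells, lies on chromosome 19 from 40612366 to 40741602 on the plus strand. Only 1 read was counted in each library labelled KO, and 4, 2 and 1 reads in WT replicates 1, 2 and 3. That is 2 reads of 67052134 in the libraries labelled KO together and 7 of 119064296 in WT, and no difference was detectable at this depth. By summed RPKM the 4 enzyme genes came to 10.7 and 9.36 in the libraries labelled KO, against 7.78, 8.40 and 8.41 in WT. Enpp1 held 55.7% ± 0.550 of that sum in libraries labelled KO (SD, n = 2) and 25.1% ± 1.86 in WT (SD, n = 3), while Entpd5 held 41.8% ± 0.557 in libraries labelled KO and 72.6% ± 1.25 in WT. Nt5e held 1.64% and 3.20% in the libraries labelled KO and 1.46%, 1.96% and 2.91% in WT.

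**Figure D4:**
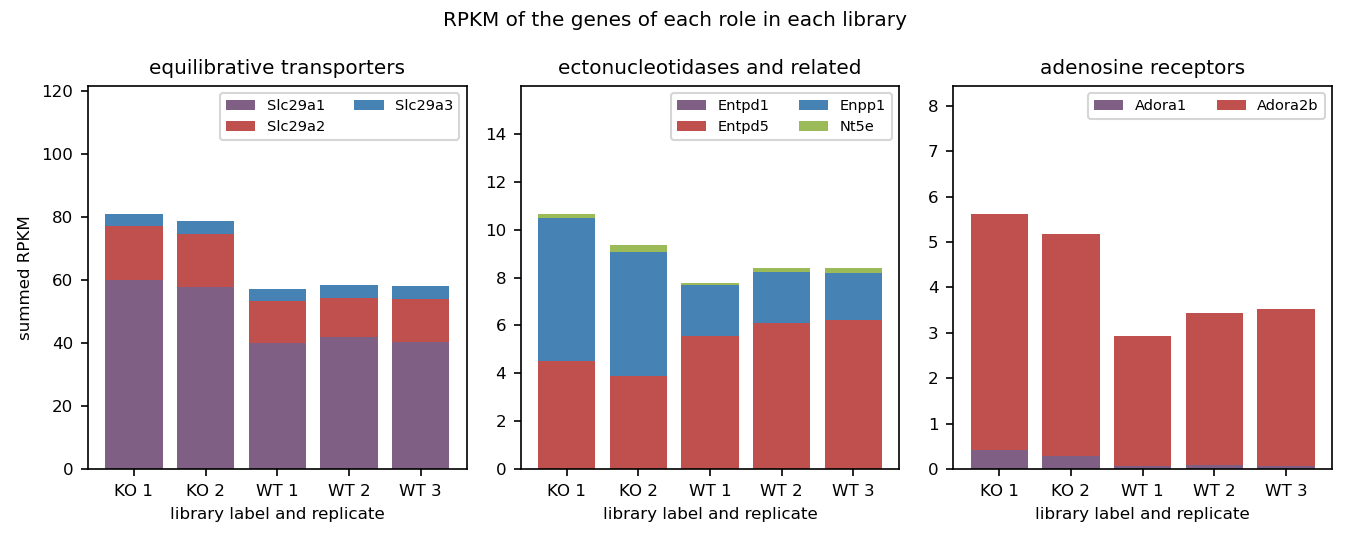
Summed RPKM (vertical axes from 0) of the 3 transporter genes, the 4 nucleotide-hydrolysing enzyme genes and both adenosine receptor genes in each library, libraries labelled KO first. Enpp1 takes 55.7% of the enzyme sum on average in libraries labelled KO and 25.1% in WT, and Adora2b makes up nearly the whole receptor bar in each library.

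Ada, whose product deaminates adenosine to inosine and whose loss causes immunodeficiency, lies on chromosome 2 from 163726571 to 163750239 on the minus strand. It was at 804 and 743 normalized counts in the libraries labelled KO, against 645, 624 and 633 in WT. The groups did not overlap, but the difference was small, 1.22-fold (log2 fold change 0.29, SE 0.072, limma, adjusted p = 0.0016). Of its 76 tested neighbours within 5 Mb, 18 were called higher and 33 lower, with a median of -0.094. The genes on either side, Pkig and Wisp2, fell with log2 fold changes of -0.53 and -0.50, and with the local shift removed that of Ada was 0.38 (adjusted p = 0.00010).

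Both adenosine receptor genes that could be tested rose. Adora2b encodes the low-affinity A2B receptor, which raises cAMP through Gs, and lies on chromosome 11 from 62248984 to 62266452 on the plus strand. It was at 354 and 337 normalized counts in the libraries labelled KO, against 195, 229 and 235 in WT. The groups were apart, with means of 345 ± 11.7 in libraries labelled KO (SD, n = 2) and 219.6 ± 21.3 in WT (SD, n = 3) and a 1.57-fold difference (log2 fold change 0.65, SE 0.115, limma, adjusted p = 3.9e-05). Its 98 tested neighbours had a median log2 fold change of -0.0017. The tested gene on one side, Specc1, rose with a similar log2 fold change of 0.63. Zswim7, on the other side, was at -0.16 and not called.

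Adora1 encodes the A1 receptor, which lowers cAMP through Gi, and lies on chromosome 1 from 134199215 to 134235457 on the minus strand. It was at 90.3 and 62.3 normalized counts in the libraries labelled KO, against 15.0, 18.8 and 14.8 in WT. The recovered reads were 82 and 56 in the libraries labelled KO and 17, 19 and 16 in WT, so that the level was low in both groups. Every library labelled KO was above every WT library, and the 4.71-fold difference of the means was the largest among the 9 tested genes (log2 fold change 2.15, SE 0.297, limma, adjusted p = 1.8e-06). On RPKM values the log2 fold change was 1.36 (adjusted p = 0.00047), where the added 0.1 exceeds every WT value. The muscle gene Mybph shares 1162 exonic bases with Adora1 on the other strand in GENCODE M21 and was at 0 in all 5 libraries. The 77 tested neighbours of Adora1 had a median log2 fold change of -0.13, and 98.7% of them were at or below it. Adora1 held 6.55% ± 1.39 of the summed receptor RPKM in libraries labelled KO (SD, n = 2) and 2.31% ± 0.303 in WT (SD, n = 3), so Adora2b was the main transcript in both.

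Of 80 further genes in 7 lists of the same pathway, all were in the table and 55 passed the filter on low values. Of these, 16 rose and 18 fell, against 65.3% of all genes tested called in either direction. Their median log2 fold change was -0.028. The counts of each list below stand against the same background, in which 32.6% of all genes tested were called higher and 32.6% lower. The concentrative sodium-driven transporter genes Slc28a1, Slc28a2 and Slc28a3 did not pass the filter, and Slc29a4, for a membrane monoamine and adenosine transporter, was at 12.1 and 14.5 normalized counts in the libraries labelled KO and at 7.95, 3.96 and 5.55 in WT, and was not called (limma, adjusted p = 0.065). It was called without WT replicate 1 (adjusted p = 0.045) and on RPKM values (adjusted p = 0.041), and in none of its 14 other alternatives. Neither of the remaining adenosine receptor genes could be tested: Adora3 was at 0 in all libraries and Adora2a had mean RPKM values of 0.0353 in libraries labelled KO and 0.0757 in WT.

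Of 8 other ectonucleotidase and phosphatase genes tested, 4 were called higher and 4 lower. The count called higher was 2 without KO replicate 1, KO replicate 2 or WT replicate 1, and also with no filter, by DESeq2, on RPKM values and in the authors' deposited table, and the count called lower was 3 or 4 in every alternative. Entpd7, for an intracellular relative of CD39, rose with a log2 fold change of 1.04 (limma, adjusted p = 4.6e-12), in a stretch of chromosome 19 whose tested genes had a median of 0.50. Entpd6 rose by 0.54 on the log2 scale (adjusted p = 2.6e-07). Cant1, a Golgi nucleotidase gene, fell with -0.55, where its neighbours had a median of -0.36. Acpp, a phosphatase gene whose product can also make adenosine from AMP, reached the filter value of 10 only in WT libraries, which favoured a lower call. It averaged 2.76 normalized read counts in libraries labelled KO, on 4 reads and 1 read, and 37.3 in WT. The log2 difference was -3.49 (adjusted p = 7.3e-07). That value was -4.16 without KO replicate 1, -2.81 without KO replicate 2 and -1.26 on RPKM values, and the call held in each. The call of Enpp4, at -0.14, was borderline (adjusted p = 0.048) and held in only 7 of 17 alternatives, with adjusted p-values up to 0.482. Among the losses were the fits without WT replicate 2 (log2 fold change -0.073, adjusted p = 0.270), KO replicate 1 (adjusted p = 0.079) or KO replicate 2 (0.318), and the authors' deposited table (0.106).

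The 5 tested genes for the release of nucleotides and pyrophosphate had a median log2 fold change of -0.97. Of them, 4 fell, where 32.6% of all genes tested were called lower, and none rose. Among the 4, Slc17a9 reached the filter value of 10 only in WT libraries, so a fall was the likelier outcome once it was tested. Its call was also lost in several alternatives (below). The fifth, the volume-regulated channel gene Lrrc8a, was at 0.038 (limma, adjusted p = 0.451), but with the local shift removed it was called higher. Ank, which encodes the membrane protein that exports ATP and pyrophosphate, averaged 19493 ± 154 normalized read counts in libraries labelled KO (SD, n = 2) and 38079 ± 569 in WT (SD, n = 3), and was 1.95-fold higher in WT (limma, adjusted p = 1.0e-15). Gja1, for connexin 43, averaged 4106 ± 16.5 normalized counts in libraries labelled KO (SD, n = 2) and 8238 ± 199 in WT (SD, n = 3), and was 2.01-fold higher in WT (adjusted p = 1.5e-15). Panx1, for the ATP-releasing channel pannexin 1, fell with -0.37 (adjusted p = 0.00044). The vesicular nucleotide transporter gene Slc17a9 was called at -1.55 (adjusted p = 0.028) on 1.10 and 8.90 normalized counts in the libraries labelled KO, and the call held in 9 of 16 alternatives. It was lost without KO replicate 1 (log2 fold change -0.43, adjusted p = 0.414), without WT replicate 1 (adjusted p = 0.080), without WT replicate 2 (0.082), with no filter (0.072), by edgeR (0.122), by DESeq2 (0.365) and in the authors' deposited table (0.216). Without KO replicate 2 the log2 fold change was -2.67.

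Of 16 tested genes of adenosine and AMP metabolism inside the cell, 6 rose and 5 fell. Nt5c2, a cytosolic nucleotidase gene, rose with a log2 fold change of 0.87 (limma, adjusted p = 9.2e-12) and Nt5c3 with 0.60, and the neighbours within 5 Mb had medians of 0.49 around Nt5c2 and 0.57 around Nt5c3. Ampd3, for an AMP deaminase, fell with -2.22 (adjusted p = 6.7e-10), while its neighbours had a median of 0.67. Nt5c3l, the older symbol of Nt5c3b, fell with -0.41. With the local shift removed, the calls of Nt5c3 (log2 fold change 0.024) and Nt5c3l (-0.085) were lost. The 2 genes of the list with the highest mean RPKM hardly moved, which does not hold for all abundant genes of the list. Ahcyl1 fell with a log2 fold change of -0.12 (adjusted p = 0.0067). Mtap was at 0.013 (adjusted p = 0.767) and was called lower with the local shift removed (-0.12, adjusted p = 0.0088).

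Among 10 tested nucleotide receptor genes, 1 rose and 1 fell. Without KO replicate 1 or KO replicate 2, or on RPKM values, 2 were called higher, and without WT replicate 1, 2 were called lower. P2rx7, for the ATP-gated P2X7 channel, averaged 117 ± 5.50 normalized read counts in libraries labelled KO (SD, n = 2) and 39.7 ± 2.02 in WT (SD, n = 3), with a log2 fold change of 1.54 (limma, adjusted p = 1.2e-06). P2ry2, for the ATP and UTP receptor P2Y2, averaged 333 ± 10.2 in libraries labelled KO (SD, n = 2) and 607 ± 7.43 in WT (SD, n = 3), with a log2 fold change of -0.87 (adjusted p = 7.2e-09). P2rx4 was at 0.22 and not called (adjusted p = 0.060), but was called without KO replicate 1 (log2 fold change 0.30, adjusted p = 0.038).

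Of 15 tested G protein and adenylate cyclase genes, 5 rose and 4 fell. Those of the inhibitory alpha subunits Gnai1 and Gnao1 rose: Gnai1 was at 216 and 201 normalized counts in the libraries labelled KO, against 20.3, 17.8 and 19.4 in WT, and Gnao1 was 7.16-fold higher in libraries labelled KO. Gnai1 averaged 1.76 RPKM in libraries labelled KO and 0.163 in WT. Gnai2 was far more abundant and averaged 294 RPKM in libraries labelled KO and 274 in WT (log2 fold change 0.11, limma, adjusted p = 0.013), a call lost without WT replicate 3 (0.080) and without KO replicate 2 (0.0505). Gnas, for the stimulatory subunit, was not called (log2 fold change 0.035, adjusted p = 0.418), except with the local shift removed (0.16, adjusted p = 0.0011). Gna11, for a subunit that couples receptors to phospholipase C, fell with -0.57. Adcy8, a calcium-stimulated cyclase gene, averaged 57.0 ± 16.8 normalized read counts in libraries labelled KO (SD, n = 2) and 734 ± 67.6 in WT (SD, n = 3), a log2 fold change of -3.69 (adjusted p = 1.5e-15).

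**Figure D5:**
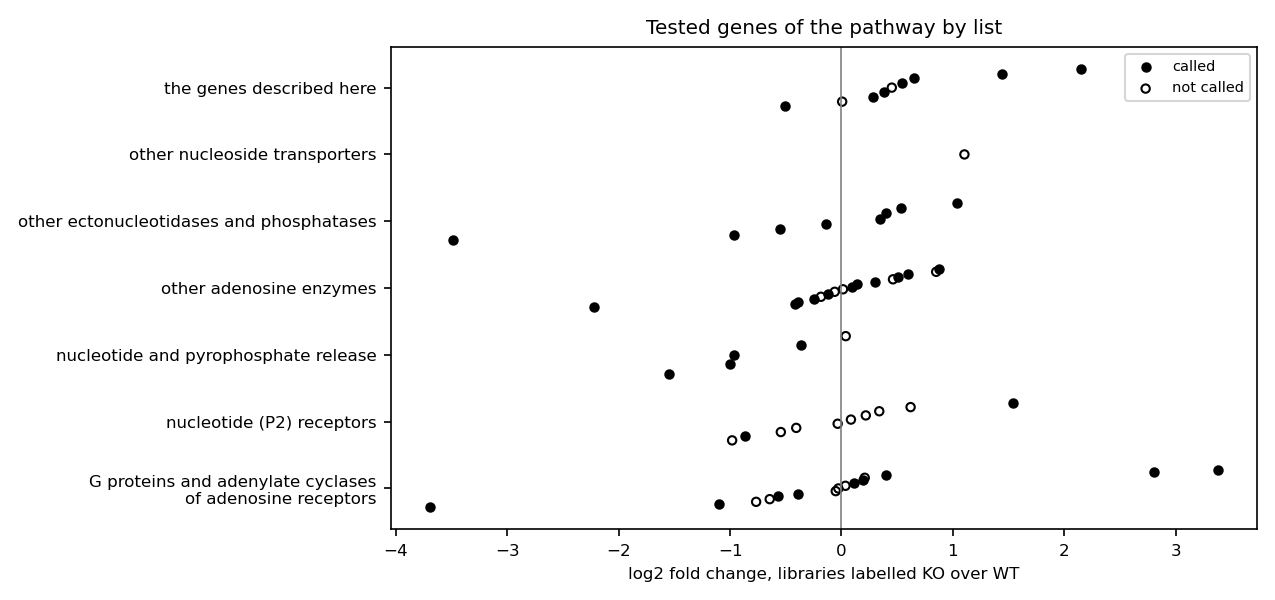
Log2 fold change (libraries labelled KO over WT) of each tested gene, by list, with called genes filled and the others open. The 9 tested genes of nucleoside transport and extracellular adenosine range from -0.50 to 2.15, and no gene of nucleotide and pyrophosphate release is called above 0.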

How the data were processed

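Poly-T selected RNA of 5 fibroblast samples went into Nextera XT libraries for an Illumina NextSeq (per the labels' protocols). STAR, DESeq2 and mm10 are named in the submitters' processing notes, without versions or roles. For the counter, annotation and strand setting, nothing is given in the sources used here. Deposited signal values were, judged by the values, counts scaled by the authors, since 100% were whole multiples of 1 step per library (within 0.1 reads). The authors also deposited RPKM, a log2 fold change with its SE, a Wald score and p-values, per the file headers. Symbols had turned into dates in 25 rows, and 5773 genes were at 0 throughout.

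Samples were grouped by title. Because deposited values were already scaled, limma 3.58.1 (R 4.3.3, trended prior, genotype as factor) was fitted to log2(value + 1) of the 13062 genes that reached 10 in 2 of 5 libraries. A gene was called at an adjusted p under 0.05 (Benjamini-Hochberg over all tested genes, two-sided). Fold changes on this scale understate those of low genes. Levels were compared between genes on RPKM. No libraries agreed within sampling noise (median chi-square per gene 1.02 to 1.63, against 0.455 from sampling alone), so each was counted as a library. This check cannot tell separate cultures from separate preparations of the same culture, so it does not show that the libraries are independent. Read numbers carry counting error only. Positions came from RefSeq on GRCm38.p6, the assembly also called mm10, for 23062 genes (2306 by a synonym), and overlaps from GENCODE M21. Of the listed genes, 3 were matched by an older symbol. The local shift of a gene is the median log2 fold change of the other tested genes within 5 Mb. It was removed as a fixed value, so p-values after its removal leave out the spread among neighbours.

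The test was tried on simulated data first. Named were all 10 genes, Sirt3, and per list up to 4 called genes with the smallest adjusted p and up to 2 of the highest mean RPKM. Flanking genes, overlapping genes, remaining transporters and receptors, Lrrc8a and the markers of cell types other than fibroblasts were named after their values were seen. The genes, lists and tests were chosen with earlier results of these data known. The alternatives comprised other scalings (TMM, median ratio), other filters (none, or a mean of at least 50), pseudocounts 0.5 and 5, omission of each library, a replicate block, RPKM values (log2(RPKM + 0.1)), removal of the local shift, and the authors' own comparison. Recovered reads of 4 libraries were also tested by edgeR 4.0.16 and DESeq2 1.42.0. WT replicate 2 was left out, its step being too near 1 (0.989). Its read numbers and total, the WT sums that hold them, and its part in the chi-square check are less sure for that reason.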

Additional observations from a re-analysis of the deposited data

How the results depend on the processing

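The 7 calls among the 10 genes kept their direction and their side of the threshold under all alternatives that could give a value, apart from Slc29a2, whose log2 fold change was 0.075 (adjusted p = 0.279) with the local shift removed. A mean of 50 or more left Adora1 and Nt5e out, and 5 genes higher. Slc29a3, never called, changed sign when libraries were left out (range -0.084 without KO replicate 2 to 0.096 without KO replicate 1, with -0.0015 without WT replicate 1), and was -0.00011 on RPKM values and -0.010 with the local shift removed. Mtap changed sign to -0.0059 without KO replicate 1 (highest value 0.033, without KO replicate 2) and was called lower with the local shift removed (-0.12, adjusted p = 0.0088). For both, the cause was not tested. The authors' deposited comparison gave 1.72 for Adora1, where limma gave 2.15. Over all genes the calls ranged from 3374 (DESeq2) to 4294 (pseudocount 5) higher and from 3325 to 4293 lower; leaving out single libraries gave 3770 to 4024 higher and 3829 to 3970 lower. Of 422 values of the other named pathway genes, 22 lost and 5 gained a call. Fits without a library labelled KO leave 1, assumed to vary like the WT libraries.

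Replicate numbers 1 and 2 occur in both groups, but deviations of same-numbered libraries did not go together (correlations -0.0097 and -0.0050 over genes, 2 pairs). The deviations of the 2 libraries labelled KO mirror each other, so the pairs are not independent. Whether same-numbered libraries share a day or culture is not given by the labels and cannot be told from these values. With the replicate number as a block, 3958 genes were called higher and 3947 lower, and the 10 genes gave 6 higher and 1 lower, as without it. The call of Gnai2 was lost under the block (adjusted p = 0.106). Depth limits Entpd1 (2 and 7 reads in the groups) and Nt5e.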
